A study of Mus musculus with 7 samples.

Results

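Messenger RNA of cell death and inflammasome genes was examined in mouse epidermis after deletion of Abca12, a lipid transporter of the skin barrier. The genes were chosen by gene name, with earlier results of these data known. The names were those of the caspases, gasdermins, NLRP and NLRC genes, genes named Bcl2 to Bcl2l15, RIP kinases, TRAF genes, and Bax, Bak1, Bid, Bbc3 and Pmaip1. Of the 7091 genes in the deposited table, 38 carry such a name. GENCODE M21 annotates 80 genes with these names, and the other 42, among them Casp8, Casp12, Bid, Bbc3, Bcl2l11, Nlrc4, Ripk1 and Ripk2, were not analysed here. Only genes that the authors called at an adjusted p-value below 0.05 are in the table, so each of the 38 genes differs between the groups by selection. What follows describes direction, size, level and spread, and a repeated test on these genes is not independent evidence.

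The mutants, called KA mice, had the genotype K14-CreERT;ABCA12-cKO, in which a recombinase that acts after tamoxifen is driven by the keratin 14 promoter of basal keratinocytes. The controls had the genotype ABCA12-c/c and no CreERT, so deletion and presence of the recombinase cannot be told apart. Mice of both groups were injected with tamoxifen at 8 weeks of age (1 mg for each 40 g, in corn oil, for 3 days), and epidermis was separated from resting (telogen) skin 2 weeks later. There were 3 control libraries (controls 1 and 3 female, control 2 male) and 4 KA libraries (KA 1 and KA 2 male, KA 3 and KA 4 female), each labelled with its own animal number. The titles also carry a letter that both groups share: A for control 1 and KA 1, B for control 2 and KA 2, and C for control 3, KA 3 and KA 4, the last 3 with higher animal numbers. What the letter stands for is not given in the sources used here.

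Caspases are proteases that cut after aspartate. Some start or carry out apoptosis, a contained form of cell death that BCL2 proteins control at the mitochondrial surface: BAX and BAK open the outer membrane, BCL2 and its close relatives hold them back, and BH3-only proteins such as NOXA (Pmaip1) release that block. Others serve inflammation: NLR proteins assemble inflammasomes, these activate caspase-1, and inflammatory caspases cut gasdermin D, whose freed end forms membrane pores and causes pyroptosis. Caspase-14 takes part in neither and belongs to cornification, the terminal differentiation of keratinocytes, where it helps to process filaggrin.

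Reads in the listed genes came to 9590718 to 12761458 per library, which is not the sequencing depth because the other genes are not in the table. Values below are normalized reads, the authors' counts divided by 1 size factor per library (0.888 to 1.247). Fold changes are log2 values of KA over control from edgeR on the raw counts with TMM scaling, each with its standard error (SE). The authors' size factors would raise them by a median of 0.13, and no direction among the 38 genes depended on that choice. The labelled tissue was checked by keratinocyte markers: 7 of 10 were in the table, 4 higher and 3 lower in KA. By smallest adjusted p-value these were led by Krt1 at 2.25 ± 0.22 (SE; adjusted p = 3.19e-05, edgeR), Krt14 at 1.45 ± 0.16 (SE; adjusted p = 6.56e-05, edgeR) and Dsg1a at -1.36 ± 0.21 (SE; adjusted p = 0.000306, edgeR). Each of the 3 was abundant in all libraries, Krt14 at 97831 to 129687 normalized reads in controls and 289025 to 390177 in KA. The other 4 were Krt5 and Sfn, higher, and Krt15 and Dsc3, lower, with log2 fold changes of 0.36, 0.89, -2.25 and -0.85. No marker of dermal fibroblasts (8 genes), mast cells (6) or muscle (7) was in the table. Because only genes that differ are listed, this does not show that such cells were absent. Of the endothelial markers 1 of 7 was in the table and higher, and 2 of 6 melanocyte markers were lower.

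Of the 38 genes, 25 were higher and 13 lower in KA, a share of 65.8% higher where 52.6% of all listed genes were higher. In no gene did the 4 KA libraries overlap the 3 controls, and the same holds for 93.3% of all listed genes. Listing itself took 36.5% of the 19407 genes that the authors adjusted over. In the refit 37 of the 38 genes passed an adjusted p-value of 0.05, 24 higher and 13 lower, where 91.5% of all tested genes passed, 44% higher and 47.5% lower. The rule that fills the table used the same contrast, so these counts are given as description. The median log2 fold change was 0.86 over the 38 genes and 0.22 over all 6761 genes tested, and 63.2% of the 38 against 41.6% of all tested genes differed by at least 1 on the log2 scale. By class, the median was 1.04 for the 15 inflammasome and pyroptosis genes, 0.40 for the 15 apoptosis genes and 0.52 for the 7 RIP and TRAF genes, and Casp14 stood at 1.76.

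**Figure D1:**
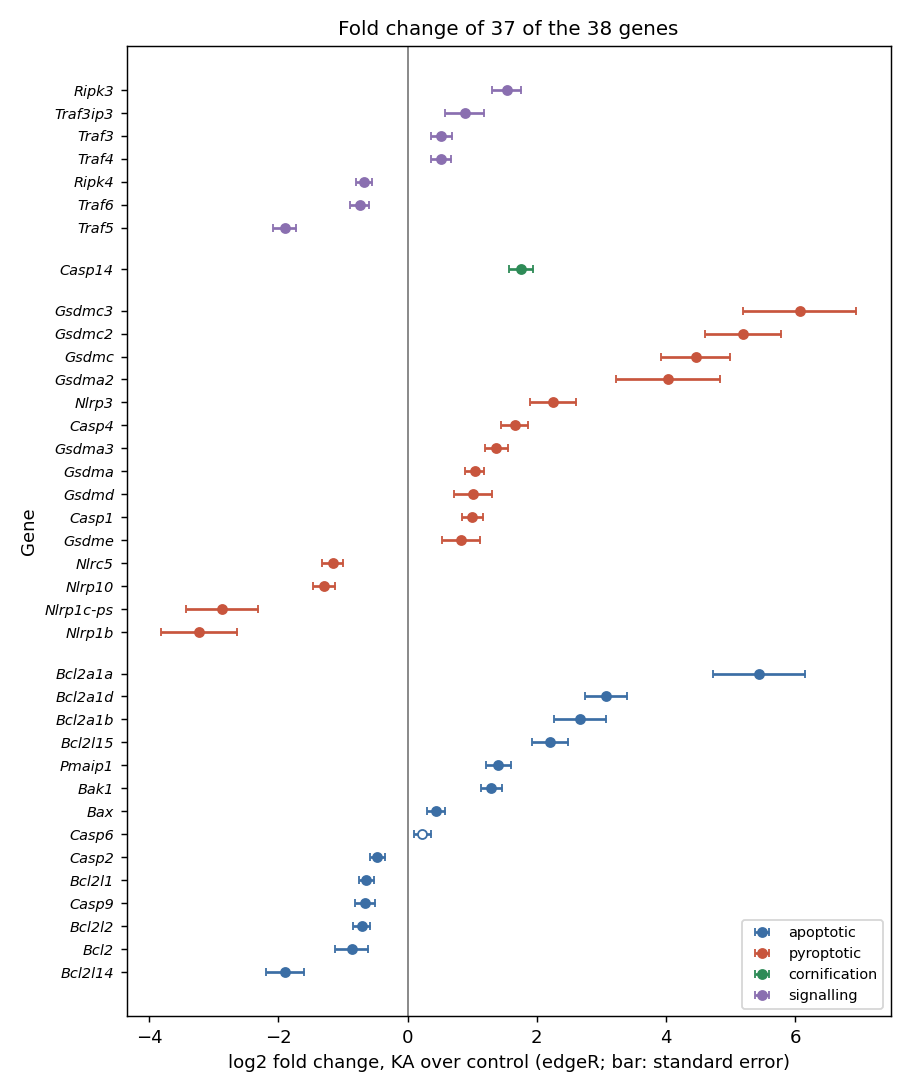
Log2 fold change of KA over control (x axis, edgeR) for 37 of the 38 genes (y axis), grouped by class; points are estimates, bars are standard errors, and the open point, Casp6, did not pass an adjusted p-value of 0.05. Gsdmc3 at 6.07 lies farthest right and Nlrp1b at -3.23 farthest left; the fitted values of Gsdmc3 and Bcl2a1a depend on the prior count because controls held at most 3 counts.

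The pore-forming gasdermins moved in 1 direction. All 8 gasdermin genes in the table, of 9 on the list of names, were higher in KA, with a median log2 fold change of 2.71. The family falls into a cluster of Gsdma genes on chromosome 11 (98626360 to 98677708 on GRCm38), a cluster of Gsdmc genes on chromosome 15 (63775968 to 63878558), and the single genes Gsdmd and Gsdme. The members are similar in sequence, which limits how reads can be divided among them. The first 90 coding bases of the chromosome 15 genes, from GENCODE M21, show how little separates Gsdmc2 from Gsdmc3. Capitals mark the 11 positions at which the 3 genes are not all alike.
Gsdmc: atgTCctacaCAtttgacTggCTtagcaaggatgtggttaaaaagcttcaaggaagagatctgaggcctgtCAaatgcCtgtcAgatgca
Gsdmc2: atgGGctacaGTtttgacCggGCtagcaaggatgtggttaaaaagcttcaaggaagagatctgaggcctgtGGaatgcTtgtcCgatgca
Gsdmc3: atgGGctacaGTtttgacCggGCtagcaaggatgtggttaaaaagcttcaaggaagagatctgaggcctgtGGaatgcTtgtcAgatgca

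Over the whole coding sequence Gsdmc2 and Gsdmc3 were 97.1% identical, and Gsdmc was 87.0% and 87.3% identical to them. Of all 100-base windows of the longest annotated transcript, 92.7% in Gsdmc, 71.4% in Gsdmc2 and 69.5% in Gsdmc3 occur in no other annotated gene. The split between Gsdmc2 and Gsdmc3 is therefore less certain than their sum. Read length is not given in the sources used here.

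Gsdmc, a gasdermin known from inflamed and stressed epithelia, had 39.8, 22.7 and 147 normalized reads in controls, in the order 1 to 3, and 1802, 1499.6, 1511 and 2058 in KA, in the order 1 to 4. All KA libraries lay more than 10-fold above control 3, the highest control. The log2 change came to 4.46 ± 0.53 (SE; adjusted p = 0.000153, edgeR). Its neighbour Gsdmc2 had 18.9, 2.06 and 40.1 in controls and 1163, 655, 549 and 1059 in KA, with KA 1 and KA 4 the highest. The log2 fold change of Gsdmc2 was 5.19 ± 0.59 (SE; adjusted p = 0.000122, edgeR). Gsdmc3 had 2.84, 0 and 0 in controls, at most 3 counts each, and 115, 47.3, 32.4 and 112 in KA. Its KA mean was 27.6-fold above a floor of 3 counts per control library. That floor is a fixed number, and the value takes in neither counting error nor the spread among libraries. Reads that carry no molecular identifier are also not independent molecules. Summed over the 3 genes, which does not depend on how reads were divided among them but still on reads shared with Gsdmc4, a near-copy not analysed here, there were 91.0 ± 85.0 reads in controls (SD, n = 3) and 2651 ± 586 in KA (SD, n = 4), means 29.1-fold apart. Control 3 carried most of the control signal, and the log2 fold changes without it were 5.66 for Gsdmc and 6.19 for Gsdmc2. Gsdmc2 stood at 5.78 by limma-voom.

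The Gsdma genes are expressed in the differentiating layers of skin and in hair follicles. Gsdma itself had 1371, 1109 and 1245 normalized reads in controls and 2741, 2616, 3349.5 and 2500 in KA, with KA 3 the highest. It rose by 1.04 ± 0.14 (SE; adjusted p = 0.000172, edgeR). Gsdma3, known from mouse mutants with hair loss, had 249.9, 256 and 308 in controls and 588, 838, 786 and 868 in KA. It rose by 1.38 ± 0.18 (SE; adjusted p = 0.000117, edgeR). Gsdma2 was scarce in controls, at 0.947, 4.12 and 9.62, and uneven in KA, at 58.4, 74.4, 206 and 32.2. Its log2 fold change of 4.04 ± 0.81 (SE; adjusted p = 0.00145, edgeR) became 5.06 without control 3 and 3.25 without KA 3, which held the most reads.

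Gsdmd encodes the substrate of caspase-1 and caspase-11. It had 33.1, 37.1 and 64.2 normalized reads in controls and 90.02, 94.6, 88.8 and 126 in KA, or on the log2 scale 1.02 ± 0.29 (SE; adjusted p = 0.00776, edgeR). Gsdme, another pore-forming gasdermin, had 58.7, 113 and 81.8 in controls and 214, 201, 134 and 114 in KA. The highest control, control 2 at 113 reads, came within 1 read of the lowest KA library, KA 4 at 114. On the log2 scale the difference was 0.83 ± 0.29 (SE; adjusted p = 0.0192, edgeR), and it no longer passed without control 1 (0.68, edgeR adjusted p = 0.067) or without KA 2 (0.73, edgeR adjusted p = 0.0521).

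Per kilobase of gene length, the makeup of the gasdermin signal differed between the groups. The authors' gene length exceeds the longest annotated transcript for some genes, such as Gsdme (12742 against 4628 bases) and Gsdma2 (3083 against 1673). For Gsdma and Gsdmc the lengths are the same. Levels per kilobase are therefore only a rough comparison between genes. Of gasdermin reads per kilobase, the Gsdma genes held 93.7%, 94.2% and 85.3% in the 3 controls. Their share was 50.6%, 60.5%, 65.8% and 50.7% in the KA libraries. The Gsdmc genes held 3.69%, 1.72% and 10.3% in controls and 47.4%, 37.3%, 32.5% and 47.1% in KA. The libraries of a group thus stayed on one side of those of the other for both clusters. On the same scale Gsdma had 456 ± 48.0 reads per kilobase (SD, n = 3) in controls and 1028 ± 139 (SD, n = 4) in KA, Gsdmc had 29.0 ± 28.0 and 714 ± 111, and Gsdmd had 18.8 ± 7.10 and 42.0 ± 7.33.

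**Figure D2:**
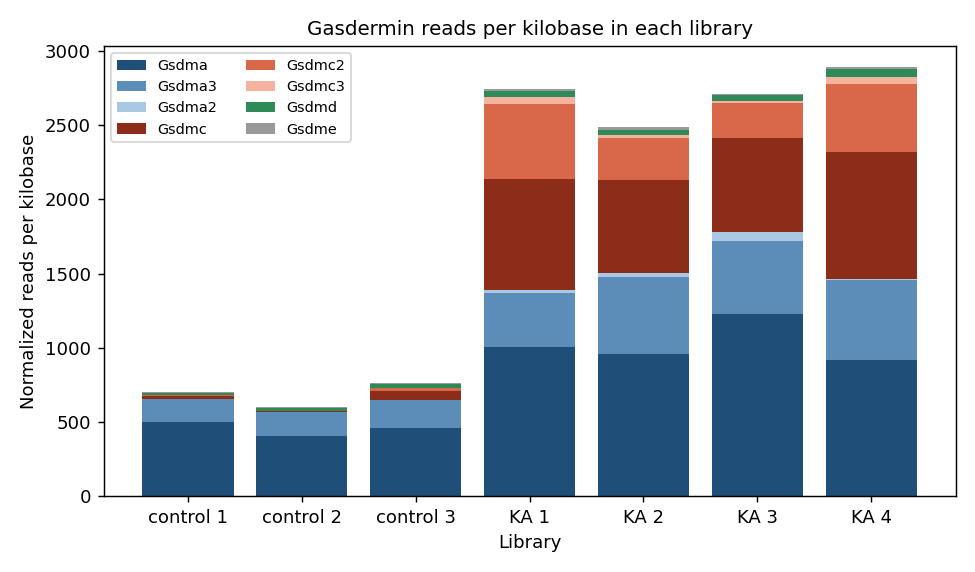
Normalized reads per kilobase of gene length (y axis) for the 8 gasdermin genes, stacked, in each of the 7 libraries (x axis); each bar is 1 library. The Gsdma genes (blue) make up most of each control bar, and the Gsdmc genes (red) add 32.5% to 47.4% of each KA bar.

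The inflammatory caspases rose as well. Casp1, which matures interleukin-1 beta, had 206, 270.1 and 263 normalized reads in controls and 664, 515, 557 and 438 in KA, a rise of 1.00 ± 0.17 (SE; adjusted p = 0.000474, edgeR). Casp4, the mouse gene for caspase-11, which senses bacterial lipopolysaccharide inside cells, had 107, 184 and 208 in controls and 601, 569, 504 and 621 in KA. It rose by 1.66 ± 0.21 (SE; adjusted p = 0.000113, edgeR). Control 1 was the lowest library for both genes. Casp1 (chromosome 9, 5298517 to 5307265) and Casp4 (5308828 to 5336783) are neighbours on the plus strand, and every 100-base window of their longest transcripts occurs in no other annotated gene. The 250 bases before each start site, from RefSeq on GRCm38.p6, are given because these adjacent genes rose together. Capitals mark matches to the NF-kB motif on either strand.
Casp1, chr9:5298267-5298516, plus strand: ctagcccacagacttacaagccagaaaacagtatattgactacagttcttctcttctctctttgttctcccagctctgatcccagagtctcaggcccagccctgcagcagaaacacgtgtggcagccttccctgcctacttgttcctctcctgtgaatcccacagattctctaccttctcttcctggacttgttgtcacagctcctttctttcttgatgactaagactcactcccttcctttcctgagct
Casp4, chr9:5308599-5308848, plus strand: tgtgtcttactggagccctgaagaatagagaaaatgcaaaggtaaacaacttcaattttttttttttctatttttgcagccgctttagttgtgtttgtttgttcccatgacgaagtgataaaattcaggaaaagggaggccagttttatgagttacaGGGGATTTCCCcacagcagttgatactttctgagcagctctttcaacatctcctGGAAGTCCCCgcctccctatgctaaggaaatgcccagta

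The Casp4 stretch held 3 NF-kB matches, starting 93, 92 and 39 bases before the start, the first 2 overlapping, and the Casp1 stretch held none. The motif occurs in 7.25% of all 32851 promoter windows of this length, and in 8.23% of the 27025 genes with such a window. Among the 38 genes, 27 had a window and 5 of these held a match: Casp4, Gsdma3, Nlrp3 and Traf3, which were higher in KA, and Bcl2l1, which was lower. A match is a description of letters, and the counts here do not bear on whether a factor binds.

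Most NLR genes in the table were lower. Of the 5 in the table, of 24 on the list of names, Nlrp3 was higher and 4 were lower. Nlrp3, the sensor of the best-known inflammasome, had 7.57, 5.15 and 6.42 normalized reads in controls and 38.6, 30.4, 36.6 and 30.1 in KA, a rise of 2.25 ± 0.36 (SE; adjusted p = 0.000378, edgeR), at low counts (5 to 39 per library). Nlrp1b, a sensor of bacterial proteases, had 116, 48.5 and 48.9 in controls and 0.989, 10.1, 14.6 and 7.27 in KA. It fell by 3.23 ± 0.58 on the log2 scale (SE; adjusted p = 0.000772, edgeR), and by 2.63 without control 1, the highest control. The pseudogene Nlrp1c-ps beside it (chromosome 11, 71242430 to 71285232) had 36.0, 24.7 and 30.5 in controls and 0.989, 2.25, 4.18 and 10.4 in KA, with a log2 fold change of -2.87 ± 0.56 (SE; adjusted p = 0.00112, edgeR), or -3.70 without KA 4.

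The other falls were in abundant genes. Nlrp10, an NLR protein found in epidermis, had 1366, 1183 and 1266 normalized reads in controls and 492, 445, 645 and 687 in KA. This was a log2 fold change of -1.29 ± 0.18 (SE; adjusted p = 0.000158, edgeR). Nlrc5, which switches on MHC class I genes and is not a classical inflammasome sensor, had 3624, 3306 and 3254 in controls and 1299.8, 1523, 1763 and 2049 in KA. Its log2 fold change was -1.16 ± 0.17 (SE; adjusted p = 0.000202, edgeR). For both genes KA 4 lay closest to the controls, and all 4 KA libraries were well below them.

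**Figure D3:**
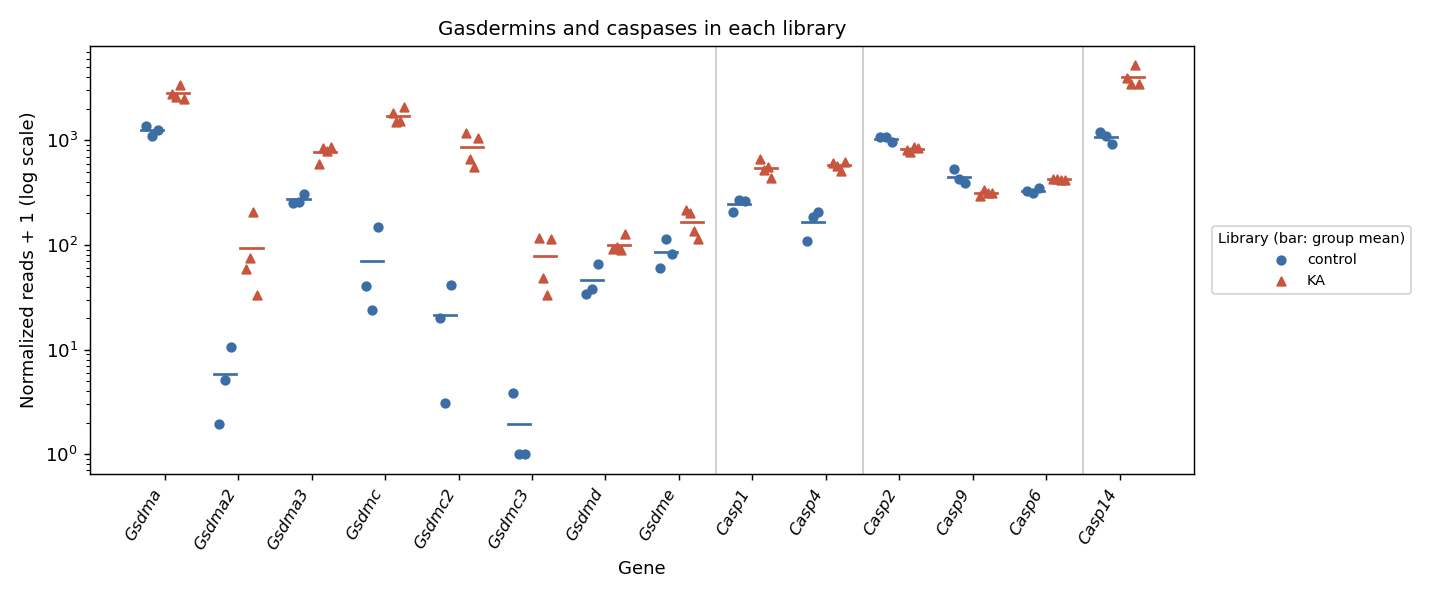
Normalized reads plus 1 on a log axis (y) for gasdermins and caspases (x) in the 3 control (circles) and 4 KA libraries (triangles); bars are group means, and grey lines part gasdermins, inflammatory caspases, apoptotic caspases and Casp14. The Gsdmc genes show the widest gap between groups, and for the apoptotic caspases Casp2, Casp9 and Casp6 the groups lie close together.

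Of 17 inflammasome partners and products on a list of names, 6 were in the table, all with a higher mean in KA, and 4 of the 5 tested passed. Over all genes, 36.5% of those the authors adjusted over were listed, and 91.5% of those tested passed. Aim2, a DNA sensor, had 46.4, 37.1 and 85.0 normalized reads in controls and 554, 376, 386 and 344 in KA, a rise of 2.73 ± 0.29 (SE; adjusted p = 4.72e-05, edgeR). Il1rn, the antagonist of the interleukin-1 receptor, had 1308, 1662 and 1205 in controls and 4357, 2564, 2813 and 3148 in KA. Its rise was 1.07 ± 0.18 (SE; adjusted p = 0.000574, edgeR). Card9, an adaptor of fungal sensing, rose by 0.97 ± 0.19 (SE; adjusted p = 0.00136, edgeR). Il1b, named after its values were seen because caspase-1 matures its product, had 21.8, 23.7 and 24.1 in controls and 104, 57.5, 49.1 and 97.6 in KA, a rise of 1.59 ± 0.34 (SE; adjusted p = 0.0018, edgeR). Ninj1, needed for rupture of dying cells, did not pass, with a log2 fold change of 0.27 (edgeR adjusted p = 0.0572).

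Markers of other cells of the epidermis moved in differing directions. All 10 markers of Langerhans and dendritic cells were in the table and higher, with a summed level of 25001 to 34625 normalized reads in controls and 58412 to 88663 in KA. Of 17 neutrophil and myeloid markers 10 were in the table, 6 higher and 4 lower, with sums of 1298 to 1644 normalized reads in controls and 7971 to 42226 in KA. Most of that KA sum is S100a9, which keratinocytes also make. Cxcr2, a neutrophil chemokine receptor, had 0, 1.03 and 4.01 reads in controls and 386, 219.7, 220.4 and 289 in KA. The 4 lower markers were Adgre1, Fcgr3, Cd68 and Fcer1g, with log2 fold changes of -1.56, -1.55, -0.78 and -0.59. Of 12 T cell markers 8 were in the table, 4 higher and 4 lower, with sums of 1486 to 1889 normalized reads in controls and 1322 to 1418 in KA. In bulk tissue, more cells of a type and more RNA per cell cannot be told apart. The part of these cells in the levels of Nlrp3, Aim2, Casp1, Casp4, Il1b and the Bcl2a1 genes below was not tested.

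Casp6, a caspase of apoptosis, had 325, 314 and 346 normalized reads in controls and 427, 425, 419.9 and 420.5 in KA. The log2 change came to 0.23 ± 0.13 (SE; adjusted p = 0.0978, edgeR), and with the authors' size factors 0.36 (edgeR adjusted p = 0.0182). The 4 KA libraries lay close together for this gene, with a coefficient of variation of 0.841%.

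The initiator caspases in the table were lower. Casp9, which the apoptosome activates, had 526, 429 and 392 normalized reads in controls and 294, 331, 315 and 309 in KA. It fell by 0.66 ± 0.15 on the log2 scale (SE; adjusted p = 0.00284, edgeR). Casp2, linked to DNA damage and cell division errors, had 1065, 1086 and 962 in controls and 807, 768, 871 and 846 in KA. It fell by 0.47 ± 0.12 on the log2 scale (SE; adjusted p = 0.00453, edgeR). Both differences were below 1 on the log2 scale.

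BAX and BAK, the proteins that open the mitochondrial membrane, both had more messenger RNA in KA. Bak1 had 322, 356 and 421 normalized reads in controls and 1155, 978, 737 and 1087 in KA, a rise of 1.30 ± 0.17 (SE; adjusted p = 0.000118, edgeR). Bax had 516, 599 and 669 in controls and 846, 949, 971 and 754 in KA, a rise of 0.43 ± 0.14 (SE; adjusted p = 0.0137, edgeR). Pmaip1, which encodes the BH3-only protein NOXA, had 138, 200 and 135 in controls and 412, 512, 457 and 449.5 in KA. It rose by 1.41 ± 0.19 (SE; adjusted p = 0.000148, edgeR). Each KA library was above every control for all 3 genes, by at least 2.06-fold for Pmaip1. Transcript windows of Bak1 overlap those of Ggnbp1 and those of Bax overlap Gm45808 (89.3% and 90.5% of 100-base windows are in no other gene), and the strand setting of the counting is not given in the sources used here.

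The classical anti-apoptotic genes were lower. Bcl2l1, which encodes BCL-XL, had 1433, 1475 and 1785 normalized reads in controls and 1134, 1069, 1159 and 1048 in KA, and fell by 0.64 ± 0.11 on the log2 scale (SE; adjusted p = 0.000727, edgeR). Bcl2l2, which encodes BCL-W, had 1231, 1227 and 1271 in controls and 737, 788, 949 and 849 in KA, and fell by 0.71 ± 0.13 on the log2 scale (SE; adjusted p = 0.000808, edgeR). Bcl2 itself had 195, 235 and 192 in controls and 89.0, 104, 131 and 173 in KA. It fell by 0.87 ± 0.25 on the log2 scale (SE; adjusted p = 0.00838, edgeR), and KA 4 came within 20 reads of the lowest control.

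The Bcl2a1 genes, anti-apoptotic and known mainly from leukocytes, went up instead. They are near-copies on chromosome 9, and coding sequences were 97.9% to 98.8% identical in pairs. The first 90 coding bases, from GENCODE M21, hold 6 positions at which the 3 genes are not all alike, in capitals, and the rest of the stretch is the same in all.
Bcl2a1a: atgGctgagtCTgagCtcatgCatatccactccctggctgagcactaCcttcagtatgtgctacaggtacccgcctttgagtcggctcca
Bcl2a1b: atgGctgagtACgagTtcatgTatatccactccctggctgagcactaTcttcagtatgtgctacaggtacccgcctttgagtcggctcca
Bcl2a1d: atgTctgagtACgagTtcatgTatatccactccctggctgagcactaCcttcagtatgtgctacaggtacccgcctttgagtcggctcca

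Of 100-base windows, 56.5% in Bcl2a1a, 43.2% in Bcl2a1b and 45.3% in Bcl2a1d occur in no other annotated gene, so reads of these genes are uncertain singly. Bcl2a1d had 13.3, 14.4 and 19.2 normalized reads in controls and 199, 175, 99.2 and 114 in KA, a log2 change of 3.07 ± 0.33 (SE; adjusted p = 4.76e-05, edgeR). Bcl2a1b had 3.79, 4.12 and 9.62 in controls and 42.5, 40.6, 39.7 and 47.8 in KA. On the log2 scale the difference was 2.68 ± 0.40 (SE; adjusted p = 0.00027, edgeR), or 3.29 without control 3. Bcl2a1a had 0, 0 and 2.41 in controls, at most 3 counts each, and 73.2, 50.7, 29.2 and 42.6 in KA. Its KA mean was 17.6-fold above a fixed floor of 3 counts per control library. The 3 genes also share windows with Bcl2a1c and Gm29094, so their sum too depends on how reads were assigned. Summed over the 3 genes, controls had 22.3 ± 7.82 reads (SD, n = 3) and KA 238 ± 64.9 (SD, n = 4), means 10.7-fold apart. KA 3 had the lowest sum of the KA libraries, 168, and KA 1 the highest, 315.

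The 250 bases before the start sites of these genes, from RefSeq on GRCm38.p6, are shown because the genes moved together. They are 97.5% to 99.5% identical where they align, and capitals mark the AP-1 motif TGANTCA, searched on both strands.
Bcl2a1a, chr9:88956670-88956919, plus strand: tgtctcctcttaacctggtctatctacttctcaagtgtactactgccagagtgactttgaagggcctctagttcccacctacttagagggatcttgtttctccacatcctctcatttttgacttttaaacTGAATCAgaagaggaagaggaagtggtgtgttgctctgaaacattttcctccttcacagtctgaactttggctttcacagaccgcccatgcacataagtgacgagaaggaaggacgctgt
Bcl2a1b, chr9:89199023-89199272, plus strand: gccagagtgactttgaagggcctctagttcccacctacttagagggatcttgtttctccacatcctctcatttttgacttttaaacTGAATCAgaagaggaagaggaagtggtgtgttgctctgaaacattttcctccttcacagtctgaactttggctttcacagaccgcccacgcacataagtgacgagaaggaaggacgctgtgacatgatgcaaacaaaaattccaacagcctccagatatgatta
Bcl2a1d, chr9:88731851-88732100, minus strand: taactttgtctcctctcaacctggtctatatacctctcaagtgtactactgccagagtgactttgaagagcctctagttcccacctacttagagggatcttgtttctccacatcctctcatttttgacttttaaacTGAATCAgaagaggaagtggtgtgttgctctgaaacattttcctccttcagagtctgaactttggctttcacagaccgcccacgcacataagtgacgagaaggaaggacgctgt

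Each stretch holds the motif once, with nearly the same letters on either side. It is present in 6.75% of all 32851 promoter windows of this length, and in 7.82% of the 27025 genes with such a window. RefSeq windows were found for 27 of the 38 genes, and among these the Bcl2a1 genes were the ones with this motif. As the 3 stretches are copies of one another, they count as 1 observation, and a match does not show that a factor binds there.

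Among BCL2-like genes of less settled function, Bcl2l15 had 15.1, 28.9 and 23.3 normalized reads in controls and 129.6, 123, 91.9 and 110 in KA, a rise of 2.20 ± 0.28 (SE; adjusted p = 0.000122, edgeR). Bcl2l14 had 264, 291 and 289 in controls and 53.4, 75.5, 134 and 66.4 in KA, with KA 3 nearest to the controls. This was a log2 fold change of -1.90 ± 0.29 (SE; adjusted p = 0.000312, edgeR).

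**Figure D4:**
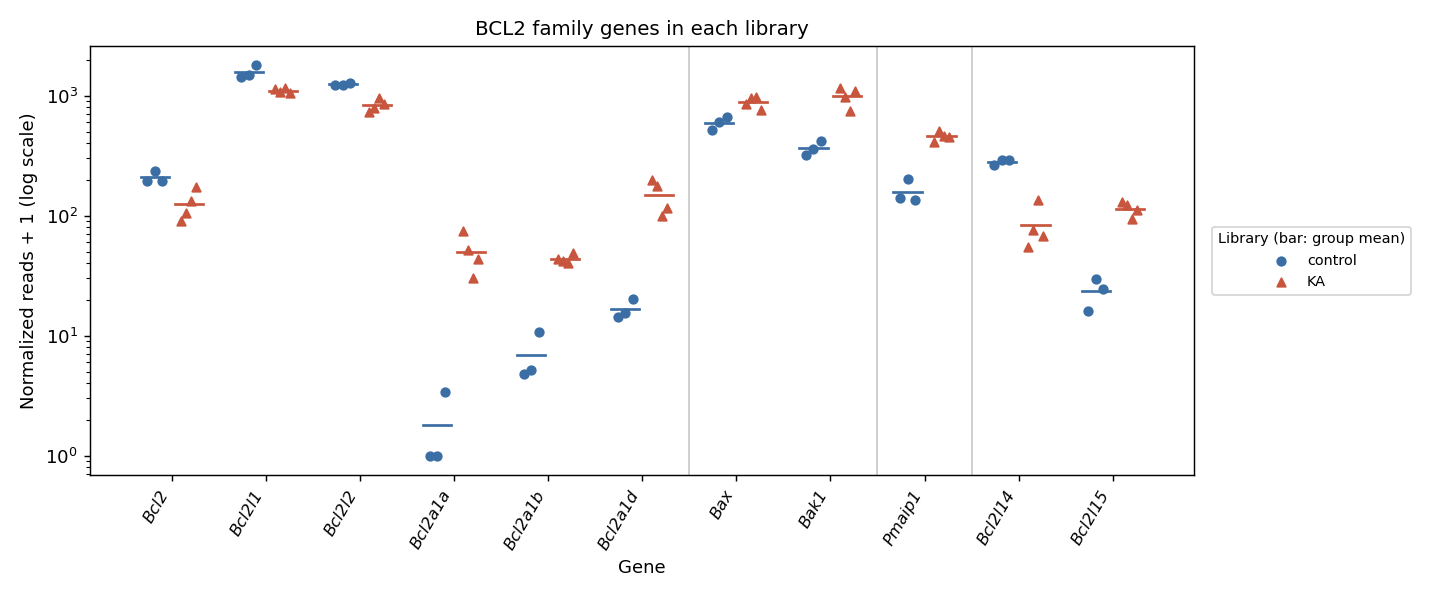
Normalized reads plus 1 on a log axis (y) for BCL2 family genes (x) in the 3 control (circles) and 4 KA libraries (triangles); bars are group means, and grey lines part anti-apoptotic genes, Bax and Bak1, Pmaip1, and other BCL2-like genes. Bcl2, Bcl2l1 and Bcl2l2 lie lower in KA, the 3 Bcl2a1 genes, Bax, Bak1 and Pmaip1 higher.

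The levels of membrane-opening and restraining genes were set side by side per kilobase of gene length. That length exceeds the longest annotated transcript for some of them, such as Bcl2l1 (4586 against 2568 bases), and the size of the ratios depends on it. Bax and Bak1 together had 461, 528 and 599 reads per kilobase in controls and 1017, 1008, 923 and 929.9 in KA. Bcl2, Bcl2l1 and Bcl2l2 together had 609.7, 622 and 695 in controls and 422, 421, 479.8 and 438 in KA. The ratio of the first sum to the second was 0.756, 0.848 and 0.862 in controls and 2.41, 2.40, 1.92 and 2.12 in KA. With the Bcl2a1 genes added to the restraining side the ratio was 0.790 ± 0.050 (SD, n = 3) in controls and 1.34 ± 0.043 (SD, n = 4) in KA. Adding Mcl1, the most abundant restraining gene and itself lower in KA, gave 0.155 ± 0.0043 (SD, n = 3) and 0.376 ± 0.020 (SD, n = 4). The groups did not overlap in any version of the ratio. It describes messenger RNA of genes that entered the table by differing, so it has no test, and it is no measure of cell death.

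Other genes of the pathway came from lists of names. Over all genes, 36.5% of those the authors adjusted over were listed, and 91.5% of those tested passed. The counts below are given as description beside these shares. Of 10 other BCL2 family genes 5 were in the table, of which 3 passed. Bok was higher at 0.58 ± 0.15 (SE; adjusted p = 0.00463, edgeR), Mcl1 lower at -0.69 ± 0.11 (SE; adjusted p = 0.000453, edgeR), and Bmf, a BH3-only gene, lower at -1.35 ± 0.31 (SE; adjusted p = 0.00292, edgeR). Of 16 apoptosome and inhibitor of apoptosis genes 5 were in the table and all passed. Cycs, which encodes cytochrome c, went from 845 ± 88.0 (SD, n = 3) to 2273 ± 481 (SD, n = 4) normalized reads, and of the 5 genes 3 were higher and 2 lower. Endog, a mitochondrial nuclease, rose by 0.99 ± 0.18 (SE; adjusted p = 0.000679, edgeR), and Birc2, an inhibitor of apoptosis, fell by 0.60 ± 0.12 on the log2 scale (SE; adjusted p = 0.0014, edgeR). Of 11 genes on a list of death receptors, related TNF family genes and adaptors, 5 were in the table, and 4 passed. Of these 3 were higher, among them Tnfrsf1b and Tnfrsf12a. The death receptor gene Fas was lower, with a log2 fold change of -0.89 ± 0.16 (SE; adjusted p = 0.000736, edgeR). Of 14 genes commonly listed as p53 targets 6 were in the table and all passed, Gtse1 higher and the other 5, among them Mdm2 and Zmat3, lower. Mdm2 had 1279, 1203 and 1114 reads in controls and 781, 724, 839 and 831 in KA. Bax and Pmaip1, which p53 can also induce, were higher, so genes known as p53 targets did not share 1 direction.

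Casp14 had the highest level per kilobase of the 38 genes in KA and is set apart from the other caspases. It had 1208, 1100 and 925 normalized reads in controls and 3924, 3462, 5197 and 3414 in KA. Every KA library was at least 2.83-fold above the highest control, and KA 3 stood highest. The rise was 1.76 ± 0.18 (SE; adjusted p = 4.45e-05, edgeR). Per kilobase its level went from 450.2 ± 59.6 (SD, n = 3), close to Gsdma at 456 ± 48.0 (SD, n = 3), to 1671 ± 347 (SD, n = 4). Casp14 (chromosome 10, 78711991 to 78718294, minus strand) shares no window of 50 bases with another annotated gene.

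Genes of cornification and filaggrin processing moved in both directions beside it. Of 23 names on the list 16 were in the table, 11 higher and 5 lower, and of 14 tested 8 passed as higher and 5 as lower. The smallest p-values were those of Spink5, a protease inhibitor, at -1.53 ± 0.15 (SE; adjusted p = 3.17e-05, edgeR), Tgm3, a transglutaminase, at 3.06 ± 0.33 (SE; adjusted p = 5.95e-05, edgeR), and Blmh. Flg, Flg2 and Lor were named after their values were seen. Flg, which encodes filaggrin, had 392, 387 and 499 normalized reads in controls and 2639, 3010.5, 6136 and 1762 in KA. Flg rose by 2.87 ± 0.41 (SE; adjusted p = 0.000378, edgeR). Flg2 and Lor were lower, Flg2 at -4.46 ± 0.70 (SE; adjusted p = 0.000574, edgeR) and Lor at -1.97 ± 0.48 (SE; adjusted p = 0.0046, edgeR). Blmh, a protease that acts on filaggrin after caspase-14, had 3729, 4605 and 4663 in controls and 15987, 10318, 14475 and 10717 in KA. It rose by 1.44 ± 0.17 (SE; adjusted p = 9e-05, edgeR). KA 3, the library with the most Casp14, also had the most Flg, Ivl and Gsdma reads of the KA libraries, while Gsdma3 was highest in KA 4. Of the 16 genes in the table all were highest in KA 3 among KA libraries except Blmh and Tgm1 (KA 1), Cst6 (KA 2) and Tgm5 (KA 4).

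RIP kinases signal downstream of death receptors. Ripk3, the kinase of necroptosis, had 129.7, 121 and 85.8 normalized reads in controls and 396, 335, 269 and 429 in KA. It rose by 1.54 ± 0.23 (SE; adjusted p = 0.000247, edgeR). Mlkl, the pore-forming protein that RIPK3 activates, had 10.4, 14.4 and 27.3 in controls and 101, 82.2, 63.7 and 97.6 in KA, a rise of 2.15 ± 0.36 (SE; adjusted p = 0.000479, edgeR). Tnfaip3 and Cyld, the other 2 of the 7 necroptosis genes that were in the table, were lower. Tnfaip3 stood at -1.30 ± 0.21 (SE; adjusted p = 0.000486, edgeR) and Cyld at -0.62 ± 0.12 (SE; adjusted p = 0.00105, edgeR). Ripk4, a kinase needed for keratinocyte differentiation, had 2985, 3139 and 2995 in controls and 1831, 1971, 2240.3 and 2281 in KA. Its log2 fold change was -0.68 ± 0.12 (SE; adjusted p = 0.000808, edgeR), and per kilobase it was the most abundant of the 38 genes in controls, at 847 ± 24.0 (SD, n = 3).

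TRAF proteins carry signals from TNF and interleukin-1 receptors. Traf5 had 617, 639 and 703 normalized reads in controls and 146, 172, 227 and 216 in KA, and fell by 1.91 ± 0.18 on the log2 scale (SE; adjusted p = 2.71e-05, edgeR), the smallest p-value of the 38 genes. Traf6, the adaptor of interleukin-1 and Toll-like receptors, had 1269.6, 1167 and 1197 in controls and 761, 639, 824 and 948 in KA. The log2 change came to -0.74 ± 0.15 (SE; adjusted p = 0.00138, edgeR). Traf3, a brake on non-canonical NF-kB, had 645, 475 and 523 in controls and 929, 817, 709 and 999 in KA. On the log2 scale the difference was 0.52 ± 0.16 (SE; adjusted p = 0.0113, edgeR), or 0.42 without control 2 (edgeR adjusted p = 0.0547). Traf4 rose by 0.52 ± 0.15 (SE; adjusted p = 0.00919, edgeR). Traf3ip3 was low, at 15.1, 14.4 and 15.2 in controls and 32.6, 32.7, 28.2 and 28.0 in KA. This was a log2 fold change of 0.88 ± 0.30 (SE; adjusted p = 0.0183, edgeR), or 0.85 without control 2 (edgeR adjusted p = 0.0627), and 0.91 with the sample number as a block (edgeR adjusted p = 0.0683).

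**Figure D5:**
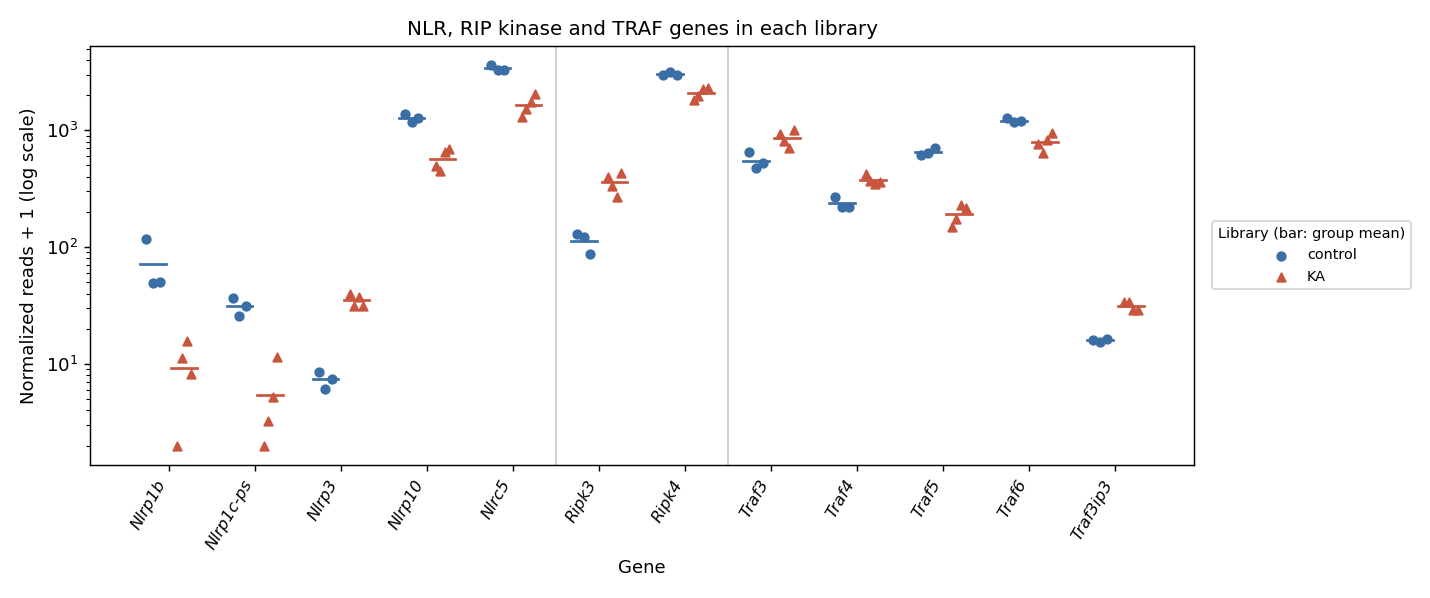
Normalized reads plus 1 on a log axis (y) for NLR, RIP kinase and TRAF genes (x) in the 3 control (circles) and 4 KA libraries (triangles); bars are group means, and grey lines part the gene groups. Nlrp3, Ripk3, Traf3, Traf4 and Traf3ip3 lie higher in KA and the other 7 genes lower, with no overlap in any gene.

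Within the KA group the order of the libraries differed between gene classes. As the median difference from the control mean on the log2(normalized reads + 1) scale, the 15 inflammasome and pyroptosis genes stood at 1.38, 1.29, 1.44 and 1.53 in the KA libraries in order, and the 15 apoptosis genes at 0.52, 0.44, 0.35 and 0.36. The controls lay between -0.16 and 0.10 for both classes. Both KA males were above both KA females in 4 of the 15 apoptosis genes and below both in 3. In the inflammasome and pyroptosis genes this held for 1 and 3 of 15, and in the RIP and TRAF genes for 2 and 3 of 7. The same share over all listed genes was not counted, so no difference between the sexes is read from these counts. Both KA males carry title letters A and B and both KA females letter C with higher animal numbers, so sex, letter and animal number run cannot be told apart within KA. With 1 male control the sexes were not tested against each other. The coefficient of variation among KA libraries was lowest for Casp6 (0.841%) and highest for Nlrp1c-ps (93.6%), Gsdma2 (83.5%) and Nlrp1b (69.2%), the last 3 of which were scarce in at least 1 group.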

How the data were processed

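RNA-seq of mouse epidermis gave 7 libraries, 3 control and 4 KA, grouped by the genotype in the labels. The deposited table gives, per the file headers, the count of raw reads for each gene, and normalized reads, a signal that the authors made by dividing counts by 1 size factor per library. It also holds the authors' log2 fold change with its error, a score (the fold change over its error), and the authors' p-value, raw and adjusted. The submitters' processing notes name fastp, STAR 2.6.1d, featureCounts 1.5.0-p3, DESeq2 1.40.2 and mm10. Roles and strand setting are not given in the sources used here. Every column belongs to a sample or to the authors' comparison, with 0 columns of no sample.

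Raw counts of all listed genes were fitted with edgeR 4.0.16 (R 4.3.3) by its quasi-likelihood test with TMM scaling, after removing 330 genes with low counts by filterByExpr. Benjamini-Hochberg adjustment ran over the 6761 genes left, and an adjusted p-value under 0.05 was called. Because the unlisted genes are missing, scaling and adjustment rest on a selected set. All 38 genes passed the low-count filter. The procedure was also run on simulated data in which most genes did not differ. The listed genes were selected for differing, so that run does not measure its performance here. The labels give each library an animal number and a title letter that control and KA libraries share, with no statement of what the letter marks.

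Members and gene lists were chosen with earlier results of these data known. Caspases, gasdermins, NLR genes and pro-apoptotic genes were to be given in every library, the 3 largest changes of each other role likewise, and at most 3 genes of each other list by smallest adjusted p-value. Exceptions are stated. Alternatives were RLE scaling, the authors' size factors, DESeq2 1.42.0, limma-voom (limma 3.58.1), no filter, a filter at a mean count of 10, terms for sex, sample number, title letter and animal number run, each replicate left out, a threshold of 0.01, and adjustment over 19407 genes. Sequences and transcripts came from GENCODE M21 and RefSeq. Abca12 itself was not analysed here, and 1 of the 38 genes enters the counts but is not reported singly here.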

Additional observations from a re-analysis of the deposited data

Results flagged for a closer look

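Gsdmd in the KA group had 1 library apart from the others: KA 4, the highest, was separated from the next by 0.8409 of the whole range of the 4 libraries, above the limit of 0.829 for 4 samples. All 38 genes were checked in the KA group, and chance alone gives about 1.9 such results among 38.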

How the results depend on the processing

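Over 19 alternatives no direction among the 38 genes was reversed, and 32 of the 38 kept their call in all of them. Called genes numbered 32 at an adjusted p-value under 0.01, 38 with the authors' size factors, and 34 to 37 when each replicate was left out in turn. Genes called lower stayed at 13 throughout. Among those whose call changed in at least 1 alternative were Casp6, Bax, Gsdme, Traf3 and Traf3ip3. With the sample number of the titles as a replicate block, 35 of the 38 genes and 5749 of all listed genes were called, against 37 and 6188 without it. The title letter as a block, the animal number run as a term and sex as a term each left 37 of the 38 called. Deviations of same-numbered libraries correlated at -0.20, 0.15 and -0.09, so the numbers were not taken to pair the samples. Nlrp1c-ps moved to -3.71 under the block. Adjustment over 19407 genes took Gsdme to an adjusted p of 0.055 (edgeR) and Traf3ip3 to 0.0527 (edgeR). The low counts of Gsdma2, Gsdmc3, Bcl2a1a, Nlrp1b and Nlrp1c-ps limit their fold changes: without control 3 Bcl2a1a stood at 8.54, and Gsdmc3 at 9.24 without control 1 and 5.48 without control 3.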
